A study of Mus musculus with 18 samples.

Results

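Hox genes encode homeodomain transcription factors and lie in 4 clusters, HoxA to HoxD, on mouse chromosomes 6, 11, 15 and 2. The members were all symbols in the deposited fibroblast gene table that consist of Hox, a cluster letter and a paralogue number, which gave 39 of 35734 genes. HoxA held 11 of them, HoxB 10, HoxC 9 and HoxD 9. Reads were found for 38, and 34 had enough reads to be tested for a change.

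The study added the zinc-finger transcription factors Ikzf1 and Ikzf4, which act early in the order of retinal cell birth, to cells being driven toward neurons. Fibroblasts of the R26-M2rtTA line (C57BL/6), which makes the doxycycline-dependent activator from the Rosa26 locus in all cells, were grown from mouse embryos. They received doxycycline-inducible lentiviruses that carry Brn2 (the product of Pou3f2) with Myt1l, called BM here, or the same factors with Ikzf1 and Ikzf4, called BM/Ikzf1/4, and were taken at 48 h. Each group had 3 RNA-seq and 3 ATAC-seq libraries, so both groups carried Brn2 and Myt1l and no group without any factor was analysed here. Nothing in the labels says that the 3 libraries came from separate cultures or embryos, so the p-values measure the spread between these libraries, which may be technical. A multiome (joint RNA and ATAC from single nuclei) gave 1 ATAC library of retina labelled as Muller glia, C57BL/6, with the line GLAST-CRE ERT2 ; RosaYFP and the condition mCherry, and 1 library labelled Ikzf1/4. In that line tamoxifen switches on Cre in cells that express Glast, and the treatment text gives 14 days where the run names give 48 h. The labels of the Ikzf1/4 library repeat its title in place of tissue, line and condition.

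Within a cluster the genes are numbered by paralogue group, from group 1 at one end to group 13 at the other. Low-numbered genes act early and toward the head, and high-numbered genes act later and toward the tail and the ends of the limbs, an order called collinearity. Cultured fibroblasts keep the Hox code of the body site they came from, and Polycomb repressive complexes hold the unused genes silent. Hox proteins bind DNA together with Pbx, Meis and Pknox cofactors.

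The promoters of 4 members that changed in the RNA are shown: Hoxa13 and Hoxd13, which rose at the end of their clusters, and Hoxb4 and Hoxb8, which fell in the middle of HoxB. Each runs 300 bases on the strand of its gene across a RefSeq transcription start (GRCm38.p6). That of Hoxb8 lies inside its gene model, which begins at base 96279401. Capitals mark GGGAA on either strand (GGGAA or TTCCC), the core of the sequence that Ikaros family proteins bind.
Hoxa13 (chr6:52260831-52261130, minus strand): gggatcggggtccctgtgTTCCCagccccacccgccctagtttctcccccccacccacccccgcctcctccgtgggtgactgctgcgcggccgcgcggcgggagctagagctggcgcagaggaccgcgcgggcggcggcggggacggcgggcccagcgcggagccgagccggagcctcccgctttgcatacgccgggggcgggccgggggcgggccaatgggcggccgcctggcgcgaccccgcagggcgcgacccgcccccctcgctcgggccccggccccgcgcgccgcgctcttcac
Hoxd13 (chr2:74667975-74668274, plus strand): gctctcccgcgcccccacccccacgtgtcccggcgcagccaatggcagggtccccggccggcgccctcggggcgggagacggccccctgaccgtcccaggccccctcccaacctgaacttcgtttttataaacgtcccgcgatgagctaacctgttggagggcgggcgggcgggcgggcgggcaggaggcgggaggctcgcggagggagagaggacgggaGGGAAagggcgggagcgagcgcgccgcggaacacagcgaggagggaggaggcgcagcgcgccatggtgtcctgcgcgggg
Hoxb4 (chr11:96318017-96318316, plus strand): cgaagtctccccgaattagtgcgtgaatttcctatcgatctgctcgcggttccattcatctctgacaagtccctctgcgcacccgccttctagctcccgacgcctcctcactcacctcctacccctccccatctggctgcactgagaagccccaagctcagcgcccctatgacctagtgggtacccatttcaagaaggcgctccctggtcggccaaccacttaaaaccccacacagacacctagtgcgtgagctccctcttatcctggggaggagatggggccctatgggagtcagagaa
Hoxb8 (chr11:96281655-96281954, plus strand): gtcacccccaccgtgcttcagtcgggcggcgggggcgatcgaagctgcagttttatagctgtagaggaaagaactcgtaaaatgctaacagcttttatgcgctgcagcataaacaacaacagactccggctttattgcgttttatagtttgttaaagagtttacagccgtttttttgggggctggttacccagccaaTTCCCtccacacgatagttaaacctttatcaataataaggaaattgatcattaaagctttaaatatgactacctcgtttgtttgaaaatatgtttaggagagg
The promoters of Hoxa13 and Hoxd13 had 45 and 37 CpG dinucleotides, the most of the 24 Hox promoters in the RefSeq table (22 genes, range 4 to 45). Those of Hoxb4 and Hoxb8 had 14 and 13. The median was 14.5 over the 24 Hox promoters and 7 over all 32851 promoters. GGGAA stood in 15 of the 24 Hox promoters (62.5%) and in 62.7% of all promoters. It was in 4 of 6 promoters of genes that rose, 3 of 5 of genes that fell and 7 of 10 of tested genes without a call. The share in Hox promoters was thus close to that of promoters at large.

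The RNA libraries held 34966344 to 44270426 estimated reads. The added factors were present where the labels place them: Ikzf1 was at 4.09 to 5.13 CPM (counts scaled to library size) in BM and 1680 to 2300 in BM/Ikzf1/4, and Ikzf4 at 1.97 to 2.01 and 830 to 1090. Pou3f2 did not pass the test (log2 fold change -0.06, SE 0.09, edgeR's quasi-likelihood adjusted p = 0.614), while Myt1l was higher with Ikzf1/4 (0.60, SE 0.13, edgeR adjusted p = 0.00526). The label of fibroblasts fitted its markers, with Col1a2 at 3437 and Col3a1 at 3095 CPM in BM. Of 10 fibroblast markers, 7 fell and none rose, where 20.9% of all genes tested fell and 20.8% rose, and their summed level went from 18500 to 19900 CPM in BM to 14200 to 15500 in BM/Ikzf1/4. Whether this or the higher Myt1l bears on the Hox values was not tested, and in bulk samples fewer cells of a type and less RNA per cell cannot be told apart.

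In BM fibroblasts the centre of the clusters was the most expressed part, and all members of groups 11 to 13 were under 2 TPM. Levels per length, given as TPM (counts scaled to transcript length and library size), ran from 0.0289 for Hoxb1 to 62.7 for Hoxb9. Hoxb9, a thoracic gene, led with 62.7 ± 2.42 TPM (SD, n = 3), followed by Hoxc6 at 61.4 ± 4.95, Hoxd8 at 38.0 ± 3.70, Hoxc8 at 35.9 ± 1.92 and Hoxb7 at 34.4 ± 0.354. Hoxb9 and Hoxc6 differed by less than their spread, as did Hoxd8 and Hoxc8. In HoxA the highest member was Hoxa7, at 24.3 ± 0.476 TPM. Of the members with reads, 15 were at 10 TPM or more, 16 between 1 and 10, and 7 under 1. The latter were Hoxb1, Hoxd1, Hoxc11, Hoxc12, Hoxa13, Hoxb13 and Hoxd13. Hoxd12 was at 0 reads in every library, which allows up to 3 reads, or 0.068 to 0.086 CPM.

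**Figure D1:**
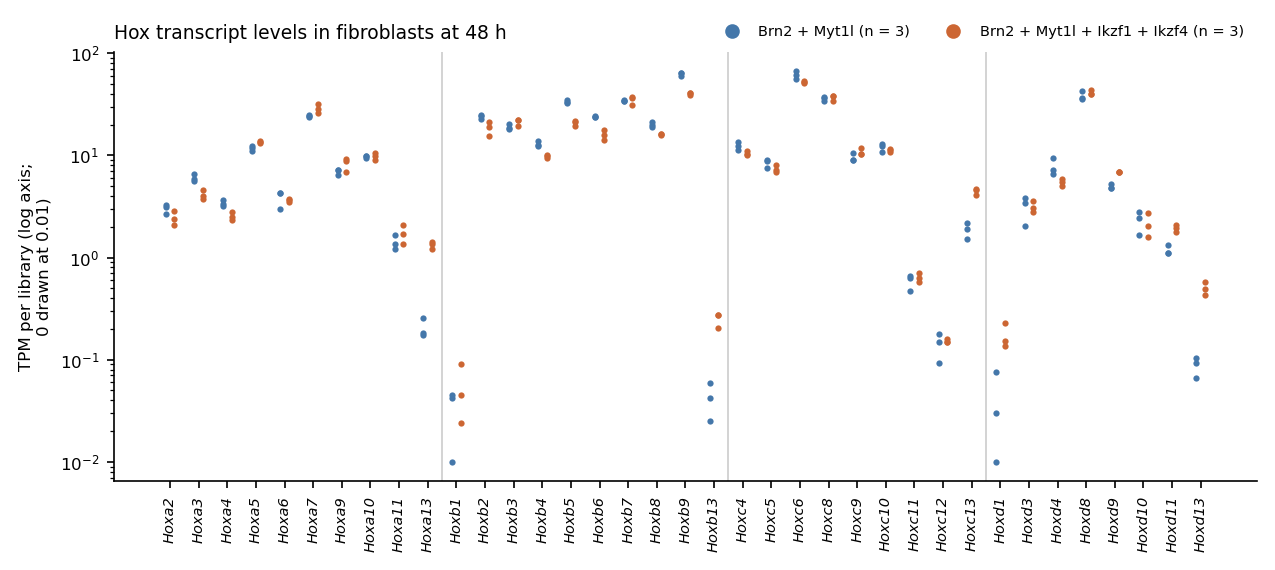
TPM of Hox genes in each of 6 RNA-seq libraries (log axis, values of 0 drawn at 0.01), ordered by cluster and paralogue group, with BM in blue and BM/Ikzf1/4 in orange. The 8 highest levels in BM lie in groups 5 to 9, 3 of the 4 group 13 genes are under 1 TPM there, and all 4 stand higher in every BM/Ikzf1/4 library.

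Summed over paralogue groups 4 to 8, the level was 331.8 ± 8.22 TPM in BM, against 59.0 ± 3.41 for groups 1 to 3 and 113.5 ± 4.72 for groups 9 to 13. HoxB gave 230.4 ± 4.38 TPM, HoxC 142.2 ± 7.55, HoxA 74.4 ± 1.87 and HoxD 57.3 ± 4.84. With Ikzf1/4 the sum over HoxB was 177.5 ± 8.37 TPM, with 171.1, 174.4 and 187.0 in the 3 libraries against 234.2, 231.4 and 225.6 in BM. The sum over HoxA was 80.2 ± 1.99 TPM, with 77.94 to 81.63 against 72.79 to 76.43 in BM. That over HoxC was 133.8 ± 3.36, with 130.1 to 136.6 against 137.8 to 151.0, and that over HoxD 61.2 ± 2.64. The groups thus lay apart for HoxA, which was higher with Ikzf1/4, and for HoxB and HoxC, which were lower, and they overlapped for HoxD. Over all members the sum was 504.3 ± 15.3 TPM in BM and 452.7 ± 14.4 in BM/Ikzf1/4.

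With Ikzf1 and Ikzf4 added, Hox genes moved in both directions, without a steady order along the clusters. The 3 tested genes of group 13 rose, and 6 of 8 tested HoxB genes and all 4 genes of paralogue group 4 fell by smaller factors. The largest rises, those of Hoxa13 and Hoxd13, started under 1 TPM, and no tested gene of group 10 was called. Whether position or level bears on these changes was not tested. Of the 34 members tested, 6 rose and 12 fell (edgeR's quasi-likelihood test, Benjamini-Hochberg adjusted p under 0.05 over 15241 genes). This is 52.9% called, and over all genes 41.8% were called, 20.8% higher and 20.9% lower. Among the members 17.6% rose and 35.3% fell. Their median log2 fold change was -0.09, against -0.01 over all genes tested. The CPM of the groups did not overlap for 19 of the 34 members (55.9%), and for 53.8% of all genes. The authors' deposited table called 16 of 36 members, 6 higher and 10 lower, where it called 30.6% of all genes.

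**Figure D2:**
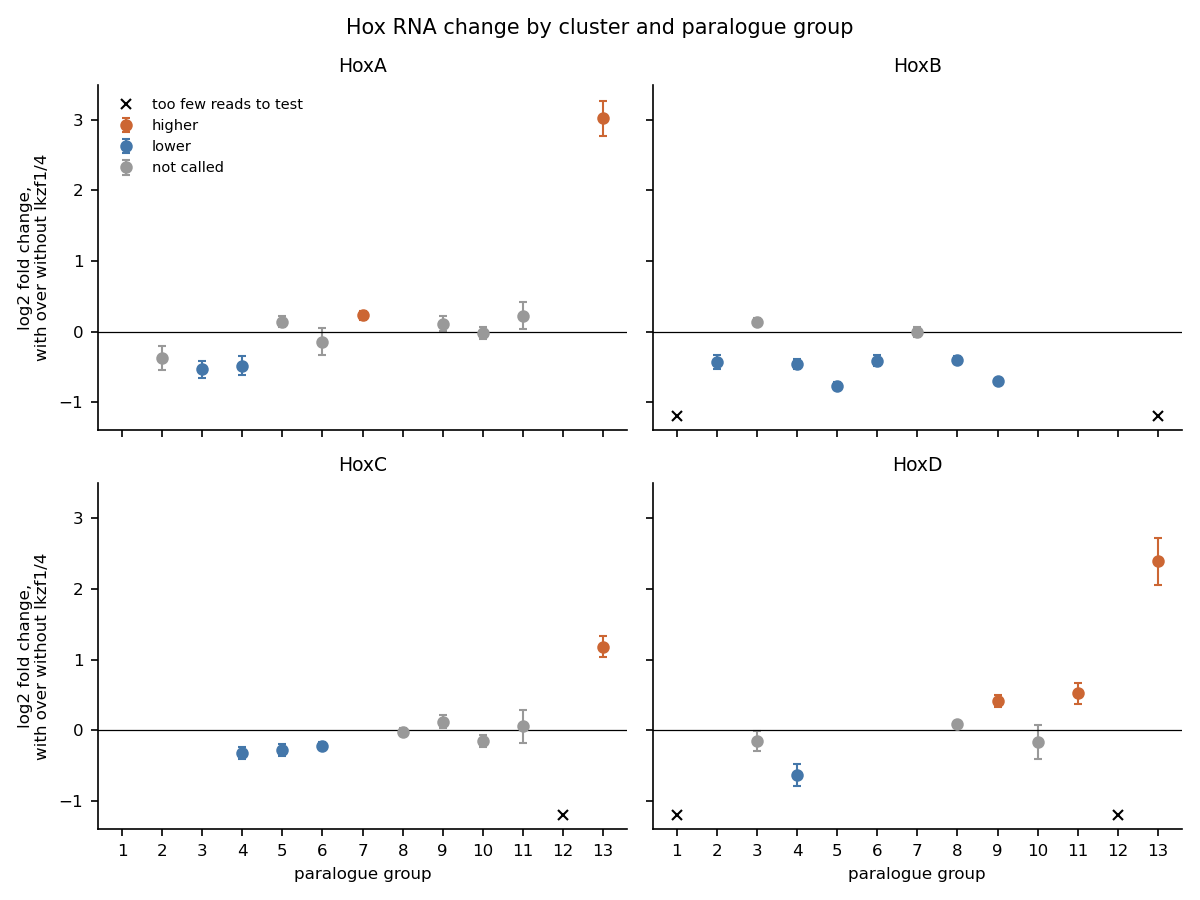
Log2 fold change of tested Hox genes, BM/Ikzf1/4 over BM, by paralogue group in the 4 clusters. Error bars are standard errors derived from edgeR's F statistic, and crosses are members with too few reads to test. The group 13 genes of HoxA, HoxC and HoxD lie at 3.02, 1.19 and 2.39, and 6 of the 8 tested HoxB genes lie below 0 and were called.

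All 3 group 13 genes that could be tested rose. Hoxa13 (ENSMUSG00000038203), which patterns digits and the genital tubercle, was at 0.223, 0.232 and 0.140 CPM in BM. In BM/Ikzf1/4 it was at 1.504, 1.745 and 1.58 CPM, an 8.12-fold rise (log2 fold change 3.02, SE 0.25, edgeR adjusted p = 2.1e-05). The groups were far apart, yet the BM values rested on 9, 8 and 6 reads. Only 0.26% of all genes tested had a larger log2 fold change. Hoxd13 (ENSMUSG00000001819), the digit gene of HoxD, went from 0.124, 0.0869 and 0.140 CPM to 0.549, 0.744 and 0.614 (log2 fold change 2.39, SE 0.33, edgeR adjusted p = 0.000399). The lowest value with Ikzf1/4 was several times the highest without, yet the BM values of Hoxd13 rested on only 5, 3 and 6 reads. Hoxc13 (ENSMUSG00000001655), needed for hair and nails, was the most expressed of the 4, with 2.01, 2.87 and 2.52 CPM in BM and 5.13, 5.93 and 5.69 with Ikzf1/4. It rose 2.27-fold (log2 fold change 1.19, SE 0.14, edgeR adjusted p = 0.000198), and these values rested on 81.1 to 108.1 reads in BM.

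Hoxb13 (ENSMUSG00000049604), which acts in the tail region and prostate, had too few reads for the test. It had 2, 1 and 3 reads in BM and 13, 9 and 13 in BM/Ikzf1/4. The ratio of the summed reads per library size was 5.73, with a 95% exact interval of 2.38 to 16.7 that covers counting error only. In the authors' deposited table, which gives an adjusted p for some genes of low counts, Hoxb13 was called higher. Its log2 fold change there was 0.47 (SE 0.19, adjusted p = 0.0381). That change is far smaller than the ratio of reads would give, so they are not like measures. The 4 group 13 genes were all called higher in the authors' deposited table, where the log2 fold changes of the others were smaller than in the edgeR fit, at 1.36 for Hoxa13, 0.84 for Hoxd13 and 0.998 for Hoxc13. Even after the rise, Hoxa13 was at 1.32 ± 0.0919 TPM, Hoxd13 at 0.498 ± 0.0738 and Hoxb13 at 0.252 ± 0.0422. Hoxc13, at 4.42 ± 0.315 TPM, then stood at rank 22 of the Hox genes.

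**Figure D3:**
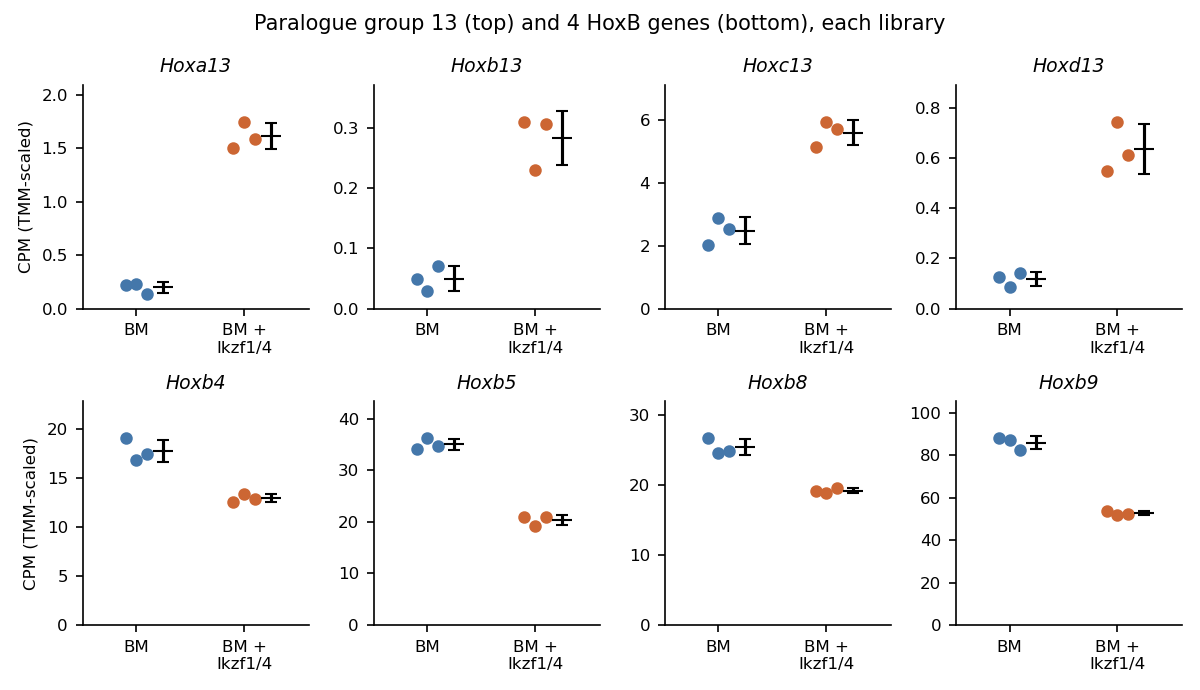
CPM in each library for the 4 group 13 genes (top) and 4 HoxB genes (bottom), with mean and SD (n = 3) beside the points and axes that start at 0. Every BM/Ikzf1/4 point lies above the BM points in the top row and below them in the bottom row.

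The other groups near the 13 end did not all move. Of the 13 tested members of groups 9 to 13, 5 rose and 1 fell, with a median log2 fold change of 0.12. This is 46.2% called, near the 41.8% of all genes, with 38.5% higher where 20.8% of all genes rose. Hoxd9 (ENSMUSG00000043342), a gene of the lower back, rose from 5.408, 5.882 and 5.503 CPM to 7.47, 7.54 and 7.39. Its log2 fold change was 0.42 (SE 0.09, edgeR adjusted p = 0.00352). Hoxd11, which shapes the forearm with Hoxa11, rose from 1.49, 1.33 and 1.38 CPM to 2.05, 1.95 and 2.03 (log2 fold change 0.52, SE 0.15, edgeR adjusted p = 0.0179). The call for Hoxd11 was lost with DESeq2 and without BM replicate 2, where the adjusted p reached up to 0.0885. HoxD was the cluster with most rises: Hoxd9, Hoxd11 and Hoxd13 rose and Hoxd4 fell among 7 tested members. The 3 members of group 10 did not pass the test, with log2 fold changes of -0.02 (Hoxa10), -0.15 (Hoxc10) and -0.17 (Hoxd10). Hoxa9, Hoxc9, Hoxa11 and Hoxc11 also did not pass, with 0.11, 0.12, 0.23 and 0.06 (edgeR adjusted p of 0.297 or more).

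HoxB was the cluster with most falls, in 6 of its 8 tested members, with a median log2 fold change of -0.42. Over all genes 20.9% fell. Hoxb9 (ENSMUSG00000020875), the Hox gene with the most reads in BM, was at 87.9, 87.3 and 82.5 CPM in BM. With Ikzf1/4 it was at 53.6, 51.9 and 52.1. It fell 1.63-fold (log2 fold change -0.71, SE 0.04, edgeR adjusted p = 3e-06), and on the TPM scale it dropped from rank 1 to rank 3 of the Hox genes. Both ranks are within the spread: Hoxc6 stood close to it in BM. With Ikzf1/4, Hoxd8 was at 41.1 ± 2.37 TPM and Hoxb9 at 40.1 ± 1.05. Hoxb5 (ENSMUSG00000038700), which positions the shoulder girdle, had the largest fall of all members, from 34.1, 36.2 and 34.7 CPM to 21.0, 19.3 and 20.9 (log2 fold change -0.77, SE 0.05, edgeR adjusted p = 8e-06). Of all genes tested, 3.9% had a lower log2 fold change than Hoxb5, so falls of this size were not rare. Hoxb4 (ENSMUSG00000038692), a regulator of blood stem cell growth, went from 19.1, 16.9 and 17.5 CPM to 12.6, 13.4 and 12.9 (log2 fold change -0.46, SE 0.07, edgeR adjusted p = 0.000621). Hoxb8 (ENSMUSG00000056648), expressed in early blood progenitors, went from 26.72, 24.69 and 24.97 CPM to 19.2, 18.9 and 19.6 (log2 fold change -0.40, SE 0.05, edgeR adjusted p = 0.000328). For all 4 genes every library with Ikzf1/4 lay below every BM library.

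Hoxb2, which specifies facial motor neurons, fell from 21.8, 20.8 and 19.9 CPM to 12.9, 16.1 and 17.2 (log2 fold change -0.43, SE 0.10, edgeR adjusted p = 0.00653). The tested HoxB members without a call were Hoxb3 (log2 fold change 0.14, edgeR adjusted p = 0.0531) and Hoxb7 (-0.01, edgeR adjusted p = 0.94). Hoxb3 lies among genes that fell, and its value was positive with no overlap between the groups, at 28.7 to 31.5 CPM in BM and 31.7 to 34.0 with Ikzf1/4. Its gene model spans Hoxb4, so the split of reads between those genes is uncertain. Hoxb1 and Hoxb13 were not tested.

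Hoxb6 (ENSMUSG00000000690) fell from 20.7, 20.1 and 20.3 CPM to 13.7, 15.7 and 16.5 (log2 fold change -0.41, SE 0.07, edgeR adjusted p = 0.00198). The fall stood in 1 of its 2 transcripts. The shorter one, ENSMUST00000000704.5 (1321 bases), had 296.8, 257.5 and 384.6 estimated reads in BM and 34.3, 0 and 47.6 with Ikzf1/4. The longer one, ENSMUST00000173432.2 (1964 bases), had 538.5, 437.7 and 485.1 reads in BM and 537.6, 613.3 and 652.3 with Ikzf1/4. Per length and library size, the shorter one went from 11.014, 11.34 and 13.41 TPM to 1.286, 0 and 1.784, and the longer one from 12.843, 12.379 and 10.864 TPM to 12.938, 15.696 and 15.738. On the TPM scale both transcripts thus lay apart between the groups, the shorter lower and the longer higher with Ikzf1/4. These transcript values are estimates that salmon divides between overlapping isoforms, and they were not tested. With the average transcript length taken into account, the log2 fold change of Hoxb6 was -0.66.

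All 4 members of paralogue group 4, genes of the hindbrain and neck, fell. Hoxa4 went from 2.65, 2.96 and 2.78 CPM to 1.96, 1.85 and 2.17 (log2 fold change -0.48, SE 0.14, edgeR adjusted p = 0.019). Hoxd4 (ENSMUSG00000101174) went from 9.20, 6.61 and 5.92 CPM to 4.61, 4.80 and 4.56 (log2 fold change -0.64, SE 0.16, edgeR adjusted p = 0.00949). Hoxc4 went from 14.8, 11.9 and 13.4 CPM to 11.3, 10.6 and 10.2 (log2 fold change -0.32, SE 0.09, edgeR adjusted p = 0.0163). With Hoxb4 above, the log2 fold changes of the group ran from -0.64 to -0.32, and no BM library overlapped a BM/Ikzf1/4 library for any of the 4. The calls of Hoxa4 and Hoxc4 were lost in 4 and 3 of 11 alternative fits.

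The remaining falls were those of Hoxa3, Hoxc5 and Hoxc6. Hoxa3, needed for the thymus and parathyroid, fell from 8.88, 7.59 and 6.81 CPM to 5.92, 4.98 and 5.15 (log2 fold change -0.53, SE 0.12, edgeR adjusted p = 0.00635). Hoxc6 (ENSMUSG00000001661), a thoracic gene and the highest of HoxC, went from 47.0, 39.8 and 43.3 CPM to 36.1, 37.7 and 37.5 (log2 fold change -0.22, SE 0.06, edgeR adjusted p = 0.0146). The nearest libraries of the groups for Hoxc6 were at 39.8 and 37.7 CPM. Hoxc5 went from 12.1 to 14.5 CPM in BM to 10.46 to 11.95 with Ikzf1/4 (log2 fold change -0.28, edgeR adjusted p = 0.0307), a call lost in 6 of 11 alternative fits. The 3 HoxC genes next to each other, Hoxc4, Hoxc5 and Hoxc6, all fell as gene sums. Hoxc8 beside them did not pass the test (log2 fold change -0.03, edgeR adjusted p = 0.748). The Hoxc4 fall stood in ENSMUST00000165375.2 (4.524 to 6.319 TPM in BM, 2.46 to 2.933 with Ikzf1/4). Its other transcript did not fall (6.638 to 7.335 and 7.335 to 8.085). For Hoxc6 the main transcript, ENSMUST00000001711.5, overlapped between the groups (44.274 to 50.585 and 43.617 to 45.764 TPM), and the shorter ones were lower with Ikzf1/4. These transcript estimates were not tested.

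Over groups 4 to 8 the test called 9 of 15 members lower and 1 higher, with a median log2 fold change of -0.28. These are 60.0% and 6.67%, where 20.9% of all genes fell and 20.8% rose. The riser was Hoxa7 (ENSMUSG00000038236), which went from 23.8, 23.4 and 23.8 CPM to 25.38, 27.84 and 30.01 (log2 fold change 0.23, SE 0.06, edgeR adjusted p = 0.0171). The call of Hoxa7 was lost in 3 of 11 alternative fits. Hoxd8 (ENSMUSG00000027102), the highest member of HoxD, did not pass, at 46.4, 50.4 and 46.4 CPM in BM and 51.1, 49.2 and 51.1 with Ikzf1/4 (log2 fold change 0.08, SE 0.05, edgeR adjusted p = 0.172). Hoxa5 and Hoxa6 did not pass (0.14 and -0.14). Over groups 1 to 3, 2 of 6 tested members fell, Hoxa3 and Hoxb2, and none rose (33.3% called, against 41.8% of all genes). Hoxa2 and Hoxd3 did not pass, with -0.38 and -0.15. In the RefSeq gene models Hoxa3 spans Hoxa4, Hoxa5 and Hoxa6, Hoxd3 spans Hoxd4, and Hoxd10 overlaps Hoxd11, so the split of reads between these genes is uncertain.

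Besides Hoxd12 and Hoxb13, 3 members had too few reads to test. Hoxd1, at the start of HoxD, had 4 reads in BM and 20 with Ikzf1/4 over the 3 libraries of each group, a ratio of 4.91 (95% exact interval 1.64 to 19.7, counting error only). In the authors' deposited table Hoxd1 was not called (log2 fold change 0.25, SE 0.15, adjusted p = 0.213). Hoxb1 had 4 and 7 reads and Hoxc12 had 8 and 9. Their ratios, 1.72 and 1.10, had intervals of 0.437 to 8.0 and 0.378 to 3.29, so a difference was not detectable at this depth.

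Genes that work with the Hox proteins or on the clusters were read from lists chosen for the pathway. Of 9 cofactor genes, all tested, 4 fell and 1 rose (55.6% called, against 41.8% of all genes), with a median log2 fold change of -0.01. Pbx3, whose product binds DNA beside Hox proteins, fell by 0.39 on the log2 scale (40.8 ± 1.33 to 31.2 ± 2.60 CPM, edgeR adjusted p = 0.000983). Meis3 fell by 0.26 and Pbx2 by 0.12, while Pknox1 rose by 0.14. Of 28 Polycomb genes, 9 rose and 2 fell (39.3% called, near the 41.8% of all genes). Pcgf5 rose by 0.62 (12.6 ± 0.510 to 19.2 ± 1.09 CPM, edgeR adjusted p = 0.000106) and Cbx8 by 0.43. Another list held 17 genes: trithorax group genes, which keep clusters active, demethylases that remove the Polycomb mark, and other chromatin genes such as Ctcf. Of these, 8 rose and none fell (47.1% called), with a median of 0.08, and no demethylase was called. Kmt2a, the founding Hox activator of the trithorax group, rose by 0.50 (103.5 ± 14.0 to 146.3 ± 12.3 CPM, edgeR adjusted p = 0.00213). Mllt3, the fusion partner of Kmt2a in leukaemia, rose by 0.58.

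Retinoic acid switches on low-numbered Hox genes during development. Of 14 tested genes of its pathway, 5 rose and 3 fell (57.1% called, against 41.8% of all genes). The synthesis enzyme Aldh1a1 fell by 1.02 on the log2 scale (3.51 ± 0.102 to 1.73 ± 0.201 CPM, edgeR adjusted p = 0.00039). Rdh10, which makes retinal, rose by 0.83 (edgeR adjusted p = 9.7e-06), Cyp26b1, which degrades retinoic acid, by 0.87 and Aldh1a3 by 0.76. Of 19 symbols listed for genes that flank the clusters, 13 were tested, and some of the others were not among the gene symbols of the data. Among the 13, 4 rose and 2 fell (46.2% called, against the same 41.8%). Skap2 beside HoxA rose by 0.29 and Cbx5 beside HoxC by 0.30, while Snx11 beside HoxB fell by 0.28 and Hnrnpa1 beside HoxC by 0.40. The 6 ParaHox and Cdx genes, relatives and regulators of Hox genes, had too few reads to test. Other transcription factors of body position or limbs were called in 15 of 28 tested genes, 11 higher and 4 lower, with a median of 0.21. This is 53.6% called, where 20.8% of all genes were called higher and 20.9% lower. Isl1, a marker of hindlimb mesoderm and of motor neurons, rose by 3.32 (0.370 ± 0.175 to 3.81 ± 0.358 CPM, edgeR adjusted p = 1.62e-05) and Pax1 by 1.26.

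Markers of blood cells and macrophages were present in these libraries. The 5 blood markers summed to 148 to 187 CPM in BM and 160 to 162 in BM/Ikzf1/4, and none of the 4 tested was called. Among them was Csf1r, the receptor of the macrophage growth factor CSF1, at 66.3 ± 7.10 and 62.6 ± 1.07 CPM. The 4 microglia markers, which share Csf1r with that list, summed to 119 to 139 and 115 to 118 CPM, and C1qa fell by 0.17 on the log2 scale (51.5 ± 2.58 to 45.6 ± 1.15 CPM, edgeR adjusted p = 0.0169). The summed level of 6 epithelial markers was 2.00 to 2.70 CPM in BM and 2.38 to 3.13 in BM/Ikzf1/4, and Epcam among them rose from 0.677 ± 0.0431 to 1.37 ± 0.194 (edgeR adjusted p = 0.0031). For 5 endothelial markers it was 6.55 to 8.51 and 7.06 to 9.24 CPM, and for 5 skeletal muscle markers 2.58 to 3.22 and 2.20 to 2.67. Only 2 of the muscle markers were tested, and they moved in opposite directions. Actn2 rose from 0.411 ± 0.0812 to 0.720 ± 0.110 CPM (edgeR adjusted p = 0.0326). Des went from 2.40 ± 0.434 to 1.68 ± 0.301 CPM and did not pass (edgeR adjusted p = 0.0607). The 6 neural crest and neural tube markers summed to 75.1 to 80.0 and 74.6 to 88.5 CPM, and Pax6 among them rose from 0.0913 ± 0.0301 to 0.340 ± 0.0379. The part of these cells in the Hox values was not tested.

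Accessibility of the clusters in the same kind of fibroblasts was compared through the peaks that MACS2 called in each ATAC-seq library. The peak lists carry mouse mm9 coordinates, as their chromosome ends show, and the 4 cluster windows with 10 kb on both sides spanned 580 kb. Peaks covered 9.3% to 12.4% of the windows. The windows held 88, 79 and 87 peaks in BM and 92, 93 and 98 in BM/Ikzf1/4. The groups did not overlap, with means of 84.7 ± 4.93 and 94.3 ± 3.21 (SD, n = 3; exact two-sided permutation p = 0.1, the smallest that 3 against 3 can give). The covered length was 59.9 ± 5.72 kb and 67.0 ± 4.15 kb (exact permutation p = 0.3). HoxB went from 27 to 31 peaks on average and HoxC from 20 to 24, HoxA from 20 to 21.7 and HoxD was at 17.7 in both groups, each with exact permutation p of 0.1 or more.

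The libraries differed in how many peaks were called in all, from 131297 in BM replicate 3 to 207243 in BM/Ikzf1/4 replicate 3. When every library was held to its 131297 highest peaks, the difference in the windows turned to -7.67 peaks (exact permutation p = 0.6) and -3.66 kb (exact permutation p = 0.1, again the smallest possible). In HoxB it was -4.53 kb, also with exact permutation p = 0.1. The direction over the whole clusters thus depended on the number of peaks called.

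With all called peaks, few single regions of the clusters were gained or lost. The 6 libraries gave 125 merged regions in the windows, of which 53 (42.4%) were present in all 6 libraries, against 23.9% of 321676 regions genome-wide. The Hox regions were wider, with a median of 716 bp against 512 bp genome-wide. The part of width in the shares given here was not tested. A region was called gained when present in all 3 BM/Ikzf1/4 libraries and no BM library, and lost in the reverse case. By this rule 4 Hox regions (3.2%) were gained and 1 (0.8%) was lost, where 9.43% of all regions were gained and 3.67% lost. The number lost also moved with stricter cuts on the peaks, so this contrast is given for all called peaks only. The counts changed when 1 library was left out, which asks for fewer libraries and so loosens the rule everywhere: 7 regions were gained without BM replicate 1 or without BM replicate 3 and 9 without BM/Ikzf1/4 replicate 2, and 3, 5 and 4 were lost without BM replicate 2, BM replicate 3 and BM/Ikzf1/4 replicate 3. Genome-wide, leaving out 1 library moved the gained regions from 30344 to between 31597 and 40495 and the lost ones from 11805 to between 13197 and 24933. The gained regions in HoxB were chr11:96168288-96168604, about 35.2% of the way from the group 1 to the group 13 end, and chr11:96061009-96061391, at 96.5% of the way, close to where the group 13 gene lies. Those in HoxC were chr15:102871590-102872317, just outside the low-numbered end, and chr15:102766999-102767807, at 85.5% of the way. The last had the highest mean peak value of the 4, with -log10 q values of 4.70, 6.99 and 4.51 as the authors' peak caller gave them. The lost region, chr2:74524476-74524883 at 80.3% of the way along HoxD, had 6.02, 2.84 and 4.40 in the BM libraries. The gene feature at these mm9 positions was not analysed here.

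Read by position, each cluster was divided into 5 equal parts from the low-numbered to the high-numbered end. In 4 of the 20 parts the share of length under peaks was higher in every BM/Ikzf1/4 library than in any BM library, and in none was it lower. Across the genome, windows of 25 kb (the mean length of the parts) held a peak in 93966 cases, of which 24.8% were higher in this way and 8.81% lower, so the count for the clusters was near the background. Genome-wide, peaks covered from 73.35 Mb in BM replicate 3 to 124.49 Mb in BM replicate 1. All 4 parts lay in the last 2 parts of a cluster. In the last part of HoxA, which holds Hoxa13, peaks covered 7.1%, 5.6% and 4.3% in BM and 12.5%, 8.9% and 17.8% with Ikzf1/4. In the last part of HoxB the shares were 0.7%, 0.7% and 0% and then 0.8%, 1.2% and 2.1%. In HoxC part 4 went from 3.3%, 6.0% and 3.7% to 7.9%, 12.4% and 9.6%, and the last part from 13.9%, 11.4% and 12.7% to 15.9%, 14.9% and 16.8%. The last part of HoxD overlapped between the groups, with 11.1%, 6.1% and 11.0% in BM and 10.7%, 13.7% and 11.3% with Ikzf1/4. With equal numbers of peaks per library, 3 of the 4 parts still lay apart (HoxA last part 5.0% and 8.6%, HoxB last part 0% and 0.8%, part 4 of HoxC 4.1% and 9.1% on average). In that setting 3 other parts were lower with Ikzf1/4: part 1 of HoxB (10.2% and 6.3% on average), part 4 of HoxB (6.3% and 3.8%) and part 3 of HoxC (10.4% and 7.9%). Of the genome's windows, 19.4% were higher and 14.0% lower. No part can reach an exact permutation p under 0.1.

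**Figure D4:**
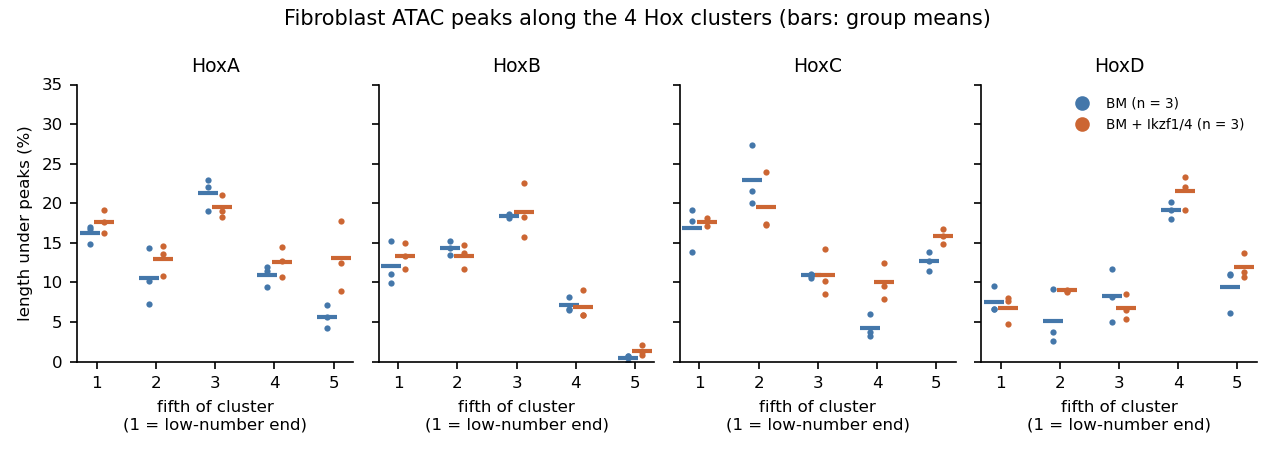
Share of each of 5 equal parts of the 4 Hox clusters that lies under fibroblast ATAC peaks, per library (points) and as group means (bars), from the low-numbered (1) to the high-numbered (5) end. The last part of HoxA has group means of 5.7% in BM and 13.1% with Ikzf1/4, and part 4 of HoxC 4.3% and 10.0%.

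In the multiome, fragments over the clusters were counted in mm10 in barcodes with at least 3000 fragments, 1964 in the retina control and 762 in the Ikzf1/4 library. Median depth was 6265.5 and 10817.5 fragments, and 3 barcodes occurred in both libraries. With 1 library per group there is no test, and the intervals here cover counting error only. Over the 4 clusters with 10 kb on both sides, 4458 of the control fragments and 3588 of the Ikzf1/4 fragments were found. Scaled to all fragments, these were 247 and 240 CPM, a ratio of 0.97 (95% interval 0.93 to 1.02). The ratio was 1.03 for HoxA (0.95 to 1.12), 0.93 for HoxB (0.85 to 1.01), 0.88 for HoxC (0.81 to 0.97) and 1.06 for HoxD (0.96 to 1.17). Fragments over marker genes of retinal cell types also differed between the libraries. The CPM summed over 5 rod markers went from 122.7 in the control to 197.4 in Ikzf1/4, that of 5 Muller glia markers from 226.0 to 168.3, of 4 cone markers from 83.9 to 58.6 and of 4 microglia markers from 67.7 to 48.0. The sum over 10 fibroblast markers, a list of no retinal cell type, also went down, from 162.1 to 132.5. All these sums include the largest barcodes, described next. The part of such differences in the Hox ratios was not tested. The chromosomes that carry the clusters had ratios of 0.95 to 1.02.

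In the Ikzf1/4 library 15 barcodes with at least 100000 fragments held 36.65% of the fragments, and in the control 7 held 15.74%. Without them HoxC turned to 1.12 (1.01 to 1.25), HoxD moved to 0.85 (0.75 to 0.96), HoxB to 0.86 (0.77 to 0.96) and HoxA to 1.05. The total was again 0.97. The values of HoxC and HoxD thus depended on a few barcodes, while the total stayed at 0.97 in this setting. The background moved as well: intervals above 1 went from 15.5% to 32.8% of protein-coding gene windows, and those under 1 from 21.2% to 13.4%. In barcodes with at least 10000 fragments the total was lower, as given in the last section. Over all barcodes HoxD was at 0.93 (0.87 to 0.98) and the total at 0.96 (0.94 to 0.99).

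In both multiome libraries the Hox genes were less open than most genes. The window of a gene with 2 kb on both sides had a median of 0.475 CPM per kb over the 39 members in the control and 0.465 in Ikzf1/4. The median over 21887 protein-coding genes was 0.619 in both, and 9 and 7 of the 39 members lay above it. The 24 RefSeq promoters had a median percentile of 38.1 and 40.0 among all promoters. Hoxa9, a gene of the trunk, was the most open member of the control, with 193 fragments or 1.30 CPM per kb, and 0.939 in the Ikzf1/4 library. The highest bin of 5 kb was the same in both libraries and lay in HoxA, with 8.66 CPM in the control and 5.70 in Ikzf1/4. The next highest bin of the control lay in HoxB, at 5.496 CPM against 3.283 in Ikzf1/4.

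For 5 of the 39 gene windows the interval of the ratio lay under 1, and for none above 1. Over 18813 protein-coding genes with at least 50 fragments, 21.2% lay under 1 and 15.5% above. The 5 were Hoxa5 (0.64, 95% interval 0.44 to 0.92), Hoxa6 (0.62, 0.43 to 0.88), Hoxa9 (0.73, 0.57 to 0.92), Hoxb8 (0.66, 0.50 to 0.86) and Hoxc9 (0.68, 0.50 to 0.91). The windows of Hoxa5 and Hoxa6 overlap, so their ratios rest in part on the same fragments. Both lie within the window of Hoxa3, which had a ratio of 1.02 (0.89 to 1.17). Without the barcodes of at least 100000 fragments only Hoxb8 of these kept its interval under 1 (0.65), Hoxd1 joined it (0.49), and Hoxa4 (1.48) and Hoxa13 (1.63) lay above 1. In that setting 13.4% of 17941 protein-coding genes lay under 1 and 32.8% above. The group 13 windows otherwise had ratios of 1.35 (Hoxa13, 0.98 to 1.85), 0.91 (Hoxb13, 0.54 to 1.49), 0.79 (Hoxc13, 0.53 to 1.17) and 1.18 (Hoxd13, 0.87 to 1.61), each with an interval that includes 1. The promoters printed above held few fragments: 5 and 8 for Hoxa13, 4 and 3 for Hoxd13, 4 and 3 for Hoxb4 and 4 and 1 for Hoxb8, in control and Ikzf1/4. A difference at single promoters was not detectable at this depth.

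**Figure D5:**
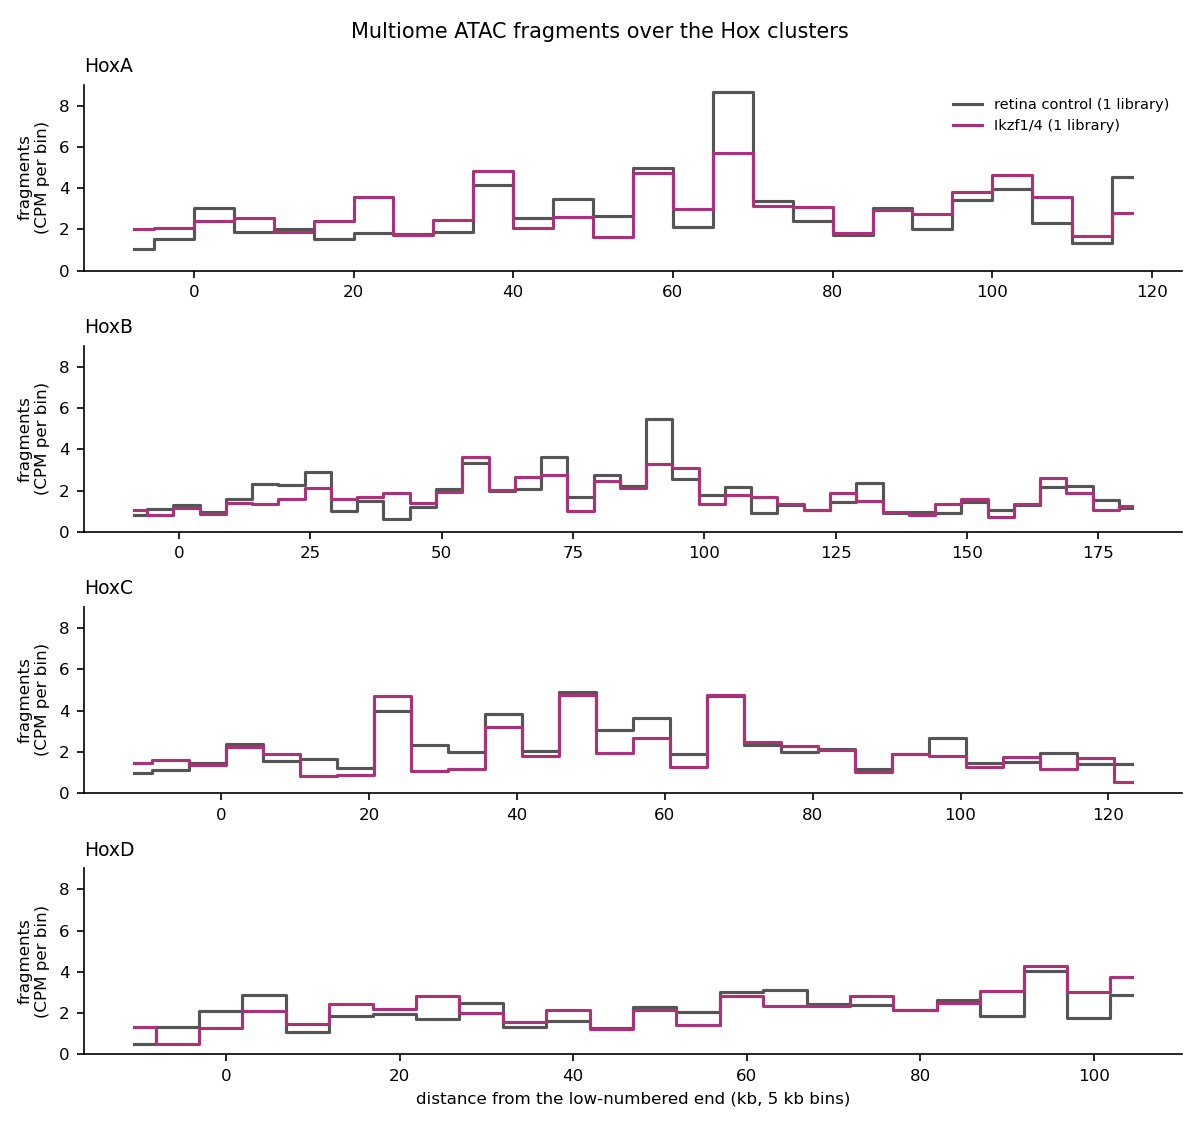
Multiome ATAC fragments in CPM in bins of 5 kb along the 4 Hox clusters, by distance from the low-numbered end, for the retina control (grey) and the Ikzf1/4 library (purple), 1 library each. The highest bin of HoxA stands at 8.66 in the control and 5.70 in Ikzf1/4.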

How the data were processed

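Of 18 samples, 14 had a processed file, and 6 RNA-seq, 6 ATAC-seq and 2 multiome ATAC libraries were used. The members and gene lists were chosen with earlier results of these data known. Per the labels, the authors deposited salmon estimated counts and TPM per transcript, from poly(A)-selected RNA, and a DESeq2 table with a mean normalised signal, log2 fold change, Wald score and p-values per gene. No source used here gives the annotation release, the use of strand or any shrinkage of its fold changes. For Hoxb13 and Hoxd1 its log2 fold changes were far smaller than their ratios of reads would give, as shrunken values are. Per the labels MACS2 made the deposited peak lists, 1 for each library, which hold a score, a fold ratio over background and -log10 p and q values. Per the file headers, cellranger-arc 2.0.1 made the mm10 fragment files, whose counts of read pairs per fragment were not used.

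Transcripts were paired with genes where the summed counts of adjacent rows, scaled for library size and effective length, matched the deposited gene mean within a relative tolerance of 2e-09. This paired 19083 of 19217 genes with a mean above 1, 38 Hox members among them, and 99.2% of reads. With all means shifted by 0.1%, 21 genes were paired. Rounded gene sums passed through filterByExpr and TMM scaling to the test of edgeR 4.0.16 (R 4.3.3, quasi-likelihood, Benjamini-Hochberg, threshold 0.05), with DESeq2 1.42.0 as an alternative. CPM uses TMM scaling. The SE beside an edgeR log2 fold change is the absolute change divided by the square root of the F statistic. The biological coefficient of variation was 5.8%.

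Members are accounted for apart from items that are not reported here. Members past the threshold and the highest of each cluster are named in full, and other genes come from the lists where past the threshold, at most 4 a list, apart from the checks of the 4 vector genes and of cell type markers. The peak lists reach base 197160924 of chromosome 1, which fits mm9. The cluster windows, rounded to 5 kb, were set from general knowledge of mm9, since no mm9 annotation was used. Peaks were merged at 1 bp overlap. Multiome intervals are exact (Clopper-Pearson on the split of fragments), and no doublets were removed. Promoters are RefSeq sequences (GRCm38.p6). The single-cell RNA-seq and multiome RNA were not analysed here. The 13 noncoding RNAs of the clusters on the list have no symbol in the table and were not analysed here.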

Additional observations from a re-analysis of the deposited data

How the results depend on the processing

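In the RNA test, 13 of the 18 Hox calls held in all 11 alternative fits and none of the 18 changed sign. The calls lost in some fits were those of Hoxa4, Hoxa7, Hoxc4, Hoxc5 and Hoxd11. Members called higher and lower were 6 and 11 with DESeq2, 7 and 12 with DESeq2 size factors in edgeR, 7 and 12 without a filter on low counts, and 5 and 11 with effective length offsets, an alternative chosen after seeing the data. Without 1 replicate each, 5 to 8 rose and 9 to 12 fell. Same-numbered libraries did not deviate together (correlations of -0.07, -0.01 and 0.08), and not every library correlated best with its own number. The correlations thus showed no pairing, but they cannot exclude a shared culture or batch. With the replicate block, 6 rose and 11 fell, and 5676 of all genes were called in place of 6366. Asking for a log2 fold change of at least 0.5 as well left 4 higher and 4 lower, where 2206 of all genes remained. At a mean of at least 10, 5 were higher and 10 lower in the authors' deposited table.

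Peak counts depended on how many peaks were kept. With the same number of highest peaks, the difference with minus without Ikzf1/4 turned to -7.67 peaks and -3.66 kb in all, to -0.667 peaks in HoxA, to -4.67 peaks and -4.53 kb in HoxB, and to -0.667 peaks and -0.854 kb in HoxC. At -log10 q of at least 5, HoxB turned to -1.56 kb. Without 1 replicate each, HoxA ranged from -0.333 to 2.67 peaks, and HoxB from -0.54 to 1.15 kb. Lost regions numbered 2 at -log10 q of at least 5, 2 with an overlap of at least 100 bp and 5 with the same number of highest peaks. The number of regions in the windows and in the genome also changes with these settings, so these counts are not shares. Without 1 replicate each, gained regions ranged from 4 to 9 and lost ones from 1 to 5. In the multiome the total ratio was 0.92 and that of HoxC 0.78 in barcodes with at least 10000 fragments. With all barcodes HoxD turned to 0.93. HoxC turned to 1.12 and HoxD to 0.85 without barcodes of at least 100000 fragments, also chosen after seeing the data. The cause of these shifts was not tested. Depth limits the members under 1 TPM and all single promoters.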
